A study of Mus musculus with 6 samples.

Results

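The cholesterol and sterol synthesis genes are a fixed list of 28 genes, covering the enzymes from acetyl-CoA to cholesterol, the proteins that sense sterols, and a few that move sterols or supply acetyl-CoA. The members were chosen by name, as all probes whose annotated symbol is on the list, with Msmo1 also sought under its older name Sc4mol. Of the 28 genes, 25 had a probe named in the platform annotation, among 19057 named genes in all, and 22 had a probe bright enough to test, among 8944 genes tested. The samples were total RNA of lenses from P30 mice (postnatal day 30), hybridised to 6 Illumina arrays, 3 from Tdrd7 null and 3 from Tdrd7 heterozygous mice, all of a strain described as C57BL/6J and C3A.Blia mix. The controls were thus heterozygous and carried 1 mutant copy of Tdrd7, so neither group was wild type. Tdrd7 encodes a Tudor domain protein of RNA granules whose loss is known to cause cataract. Whether these were separate animals is not stated in the labels, so errors and p-values cover only the spread between the deposited samples, and that spread may be technical.

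Cells build cholesterol from acetyl-CoA through mevalonate, farnesyl diphosphate, squalene and lanosterol. When sterols in the endoplasmic reticulum run low, the Insig proteins release Scap, which escorts the SREBP transcription factors to be cut and activated, and SREBP-2 in particular raises the genes of the whole pathway. Lens fibre cell membranes are known for a very high cholesterol content, and in humans mutations of LSS cause congenital cataract, while loss of DHCR7 causes Smith-Lemli-Opitz syndrome, in which cataract can occur.

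Following the column order of the raw table, the heterozygous samples are called arrays 1 to 3 and the null samples arrays 4 to 6. Tdrd7 itself differed by −3.88 ± 0.26 (SE) on the log2 scale between null and heterozygous lenses (limma, adjusted p = 0.00139), which follows the labels. Lens fibre markers were bright on all 6 arrays, with a summed intensity of 201628 to 210311 in heterozygous and 188214 to 210843 in null lenses. Of 8 named markers 7 or 8 were detected on each array (Gja3 on no null array). The quantile normalization used here gives every array the same set of values, which limits how far sums over such bright probes can differ. Heterozygous array 2 had the fewest probes detected, 12655, and null array 5 the most, 16204. These 2 arrays also stood apart in correlation, with no value above 0.946 for heterozygous array 2 and 0.962 for null array 5 against any other array, where each of the other 4 had a best correlation of at least 0.981. Counts and medians over the 22 tested sterol genes are therefore also given without this pair of arrays, as are the values of many single genes. The small number of arrays limits the precision: for a single gene, exact permutation of 3 against 3 samples, two-sided, gives at best p = 0.1.

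The promoters of 4 members are shown, chosen after their values were seen, because their transcripts differed most between the groups or behaved alike on several probes. They are Cyp51, Msmo1 and Nsdhl, which act on lanosterol and its early products and had higher means in null lenses, and Dhcr7, the last enzyme, which had a lower mean. Each window runs from 250 bases before to 50 bases after the gene's first listed start, 5′ to 3′ on the strand of the gene, from RefSeq on GRCm38.p6. Capitals mark matches to CCAAT, the box bound by NF-Y, a usual partner of SREBP, and to 3 spellings of the sterol response element, TCACNCCA, TCACNCCAC and TCACNCNAC, which overlap each other, all searched on both strands.
Cyp51, chr5:4104648-4104947, minus strand: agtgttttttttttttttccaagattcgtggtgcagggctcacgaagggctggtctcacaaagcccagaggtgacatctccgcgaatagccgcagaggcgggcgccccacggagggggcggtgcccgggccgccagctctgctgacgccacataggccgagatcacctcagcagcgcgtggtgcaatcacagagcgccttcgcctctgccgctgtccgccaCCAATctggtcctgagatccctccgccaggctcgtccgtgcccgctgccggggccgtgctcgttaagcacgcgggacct
Msmo1, chr8:64733529-64733828, minus strand: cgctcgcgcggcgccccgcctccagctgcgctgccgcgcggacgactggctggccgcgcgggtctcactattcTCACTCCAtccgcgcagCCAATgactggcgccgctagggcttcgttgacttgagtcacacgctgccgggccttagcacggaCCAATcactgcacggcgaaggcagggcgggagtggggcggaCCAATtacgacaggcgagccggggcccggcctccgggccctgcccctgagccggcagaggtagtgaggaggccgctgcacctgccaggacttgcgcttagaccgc
Nsdhl, chrX:72918271-72918570, plus strand: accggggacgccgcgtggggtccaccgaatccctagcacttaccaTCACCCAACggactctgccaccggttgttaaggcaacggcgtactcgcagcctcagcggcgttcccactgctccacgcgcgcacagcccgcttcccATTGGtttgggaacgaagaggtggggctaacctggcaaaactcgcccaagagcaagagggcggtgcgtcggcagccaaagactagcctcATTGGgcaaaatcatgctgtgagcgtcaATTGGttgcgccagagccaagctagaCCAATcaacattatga
Dhcr7, chr7:143822917-143823216, plus strand: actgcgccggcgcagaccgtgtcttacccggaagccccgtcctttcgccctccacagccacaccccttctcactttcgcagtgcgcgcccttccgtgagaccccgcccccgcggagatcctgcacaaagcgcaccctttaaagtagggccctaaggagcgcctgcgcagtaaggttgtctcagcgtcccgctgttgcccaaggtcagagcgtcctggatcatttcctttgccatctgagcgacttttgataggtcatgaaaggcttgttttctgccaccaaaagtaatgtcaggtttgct

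The Nsdhl window held 4 CCAAT boxes and the match TCACCCAAC, the Msmo1 window 3 CCAAT boxes and TCACTCCA, the Cyp51 window 1 CCAAT box, and the Dhcr7 window 0 of either motif. The windows of Mvk and Pmvk, which also had lower means in null lenses, held 5 and 1 CCAAT boxes. Of the 28 members, 23 had a window (Fdps, Fdft1, Sqle, Stard4 and Abcg1 had none). CCAAT was found in 19 of these 23, against 37.9% of the windows of all 27025 genes. A sterol response element in any of the 3 spellings was found in 4 of the 23 (Hmgcs1, Msmo1, Nsdhl and Srebf2), against 5.71% of all genes. By single spelling, TCACNCCA was in 3 members and 4.28% of all genes, TCACNCCAC in 1 member and 1.22%, and TCACNCNAC in 2 members and 2.78%. A match is a description of the letters and does not show that a factor binds there. The lack of a match covers only these spellings and windows, and does not show that a promoter lacks a sterol response element.

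Across the pathway most sterol genes had a somewhat higher mean in null than in heterozygous lenses, by small amounts. Mvk, Pmvk and Dhcr7 had lower means, as had Tm7sf2 and Scap by less than their SE. Relative to the heterozygous mean, the mean over the 22 members was 0.28 on null array 4. It was 0.04 and 0.08 on null arrays 5 and 6, within the heterozygous range of −0.08 to 0.13. Of the 22 members tested, 17 (77.3%) had a difference above 0 and 5 below 0, where 51.8% of all 14902 probes tested were above 0. The median difference over the members was 0.21 on the log2 scale, against 0.01 over all probes. By limma, 0 of the 22 members had an adjusted p under 0.05, as 0.174% of all probes had, 0.047% of them higher and 0.127% lower. At an unadjusted p under 0.05 there were 5 members (8.7% of all probes), 2 higher (4.27%) and 3 lower (4.44%). The 3 null values lay wholly above the 3 heterozygous values for 2 members, Cyp51 and Ebp, and wholly below for 3, Mvk, Pmvk and Dhcr7, where 7.43% of all probes lay above and 7.86% below. The direction of the median held in all 16 other settings, in which it ran from 0.13 to 0.60.

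**Figure D1:**
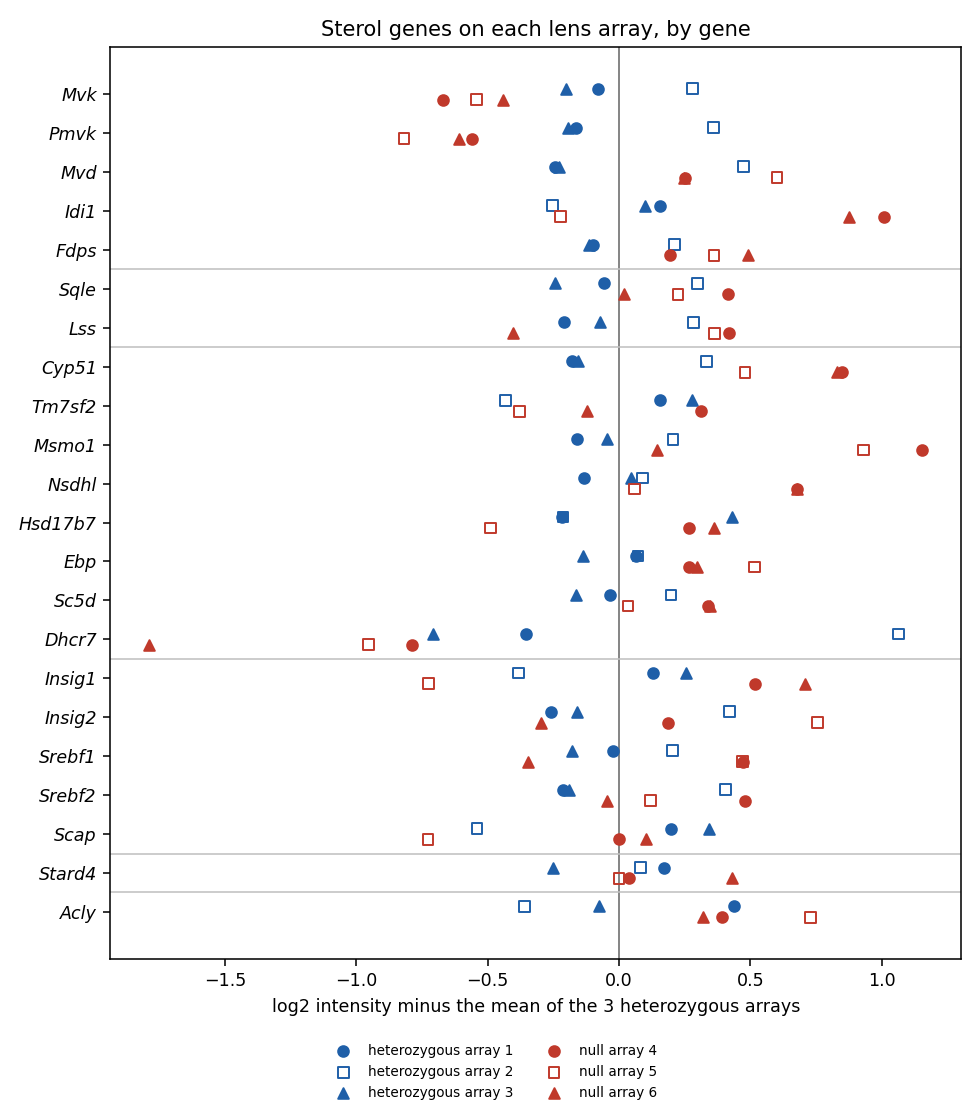
Log2 intensity of each of the 22 tested sterol genes on each array, relative to the mean of the 3 heterozygous arrays (horizontal axis), with genes in pathway order and lines between role groups. Blue symbols are heterozygous and red symbols null arrays, with open squares for heterozygous array 2 and null array 5. Red symbols lie to the right of all blue ones for Cyp51 and Ebp and to the left for Mvk, Pmvk and Dhcr7.

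Without heterozygous array 2 and null array 5, the counts above and below 0 were again 17 and 5, with 50.3% of all probes above 0, and the median difference was 0.30 against 0.00 for all probes. Again 0 members passed in limma, where 0.752% of all probes did. At an unadjusted p under 0.05 there were 6 members (10.3% of all probes), 5 higher (5.48%) and 1 lower (4.8%). The 2 remaining null values lay above both heterozygous values for 11 of 22 members, where this held for 20.4% of all probes, and below for 4, where it held for 19% of all probes. The 5 members at that unadjusted p and higher were Cyp51, Idi1, Nsdhl, Msmo1 and Mvd, and the lower one was Dhcr7.

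The early steps turn acetyl-CoA into farnesyl diphosphate. Of 5 members tested here 3 were above 0 and 2 below, with a median of 0.35, and 0.45 without arrays 2 and 5. Acat2 and Hmgcs1, which make the first intermediates, had no probe named for them and are not analysed here. Mvk, which phosphorylates mevalonate, was at 5.49, 5.85 and 5.36 on the log2 scale on heterozygous arrays 1, 2 and 3 and at 4.90, 5.02 and 5.12 on null arrays 4, 5 and 6. Every null value of Mvk lay below every heterozygous one, and Mvk differed by −0.55 ± 0.22 (SE), which missed the threshold (limma, adjusted p = 0.509). Pmvk, the next kinase, was at 7.10, 7.62 and 7.07 in heterozygous and 6.70, 6.45 and 6.65 in null lenses, again without overlap. Pmvk differed by −0.66 ± 0.23, a 1.58-fold lower level (limma, adjusted p = 0.439). Without heterozygous array 2 and null array 5 the differences were −0.42 ± 0.21 for Mvk and −0.41 ± 0.20 for Pmvk.

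Mvd, Idi1 and Fdps, the enzymes that follow Pmvk, were on the opposite side. Mvd, which makes isopentenyl diphosphate, was at 5.22, 5.94 and 5.23 in heterozygous and 5.71, 6.06 and 5.71 in null lenses, so that heterozygous array 2 alone reached the null range. Its difference was 0.37 ± 0.26 with all arrays (limma, adjusted p = 0.757) and 0.49 ± 0.20 without arrays 2 and 5. Idi1, the isomerase of isopentenyl diphosphate, was at 5.37, 4.96 and 5.31 in heterozygous and 6.23, 4.99 and 6.09 in null lenses. Null arrays 4 and 6 were thus well above all heterozygous arrays and null array 5 was not. The difference for Idi1 was 0.55 ± 0.33 (limma, adjusted p = 0.696), and 0.82 ± 0.20 without arrays 2 and 5 (adjusted p = 0.129). Fdps, which makes farnesyl diphosphate, was at 10.26, 10.57 and 10.25 in heterozygous and 10.55, 10.72 and 10.85 in null lenses, a difference of 0.35 ± 0.21 (limma, adjusted p = 0.705). Only heterozygous array 2 and null array 4 overlapped for Fdps. Both probes of Ggps1, which makes geranylgeranyl diphosphate for protein prenylation, were detected on 0 of 6 arrays, so Ggps1 has no measured difference.

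Squalene is made by Fdft1, which had no named probe and is not analysed here, then oxidised by Sqle and closed into lanosterol by Lss. Sqle, a control point of the pathway, was at 8.78, 9.14 and 8.60 in heterozygous and 9.26, 9.06 and 8.86 in null lenses on its brightest probe. The groups overlapped, with a difference of 0.22 ± 0.23 (limma, adjusted p = 0.846). A second Sqle probe gave 0.32 ± 0.26. Lss was at 5.54, 6.04 and 5.68 in heterozygous and 6.17, 6.12 and 5.35 in null lenses. Null array 6 held the lowest Lss value of all 6 and null array 4 the highest, and the difference was 0.13 ± 0.27 (limma, adjusted p = 0.937). On its second probe, detected on 1 heterozygous and 2 null arrays, Lss differed by 0.02 ± 0.26.

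The enzymes that turn lanosterol into cholesterol held the members that differed most, in both directions. Of 8 tested 6 were above 0 and 2 below, with a median of 0.30, and 0.38 without arrays 2 and 5. Cyp51, the lanosterol demethylase, was at 7.65, 8.16 and 7.67 in heterozygous and 8.67, 8.30 and 8.66 in null lenses. The lowest null value, on array 5, lay just above the highest heterozygous one, on array 2. The difference was 0.72 ± 0.23, or 1.65-fold higher in null lenses (limma, adjusted p = 0.388, 95% interval without adjustment 0.20 to 1.24). Without that pair of arrays it was 1.01 ± 0.20 (adjusted p = 0.0602), and it passed in 1 of 16 settings, the one that weights arrays by their quality (0.92, adjusted p = 0.0247), in which 1.75% of all probes passed, 0.792% as higher.

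Msmo1, the methylsterol oxidase that acts after Cyp51, was at 6.81, 7.17 and 6.92 in heterozygous and 8.12, 7.89 and 7.11 in null lenses. Null arrays 4 and 5 were clearly above the heterozygous range and null array 6 was inside it. The difference was 0.74 ± 0.28 (limma, adjusted p = 0.503), and 0.75 ± 0.30 without arrays 2 and 5. Nsdhl, the dehydrogenase of the same demethylation, was at 6.23, 6.45 and 6.41 in heterozygous and 7.04, 6.42 and 7.04 in null lenses on its brightest probe. Here null array 5 sat among the heterozygous arrays. The difference was 0.47 ± 0.24 (limma, adjusted p = 0.625), and 0.72 ± 0.20 without arrays 2 and 5 (adjusted p = 0.197). The other 3 tested Nsdhl probes gave 0.45 ± 0.27, 0.40 ± 0.24 and 0.68 ± 0.20, so all 4 pointed the same way. The last of these, ILMN_2594521, was the only Nsdhl probe without overlap, at 5.84, 5.87 and 5.97 in heterozygous and 6.45, 6.49 and 6.79 in null lenses. Its adjusted p of 0.329 (limma) was the lowest of all 31 tested member probes. Of these 31 probes 26 had a difference above 0 and 5 below. Probes of 1 gene share their transcripts and are not independent.

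Of the remaining enzymes, Hsd17b7, a ketosteroid reductase, was at 7.68, 7.69 and 8.33 in heterozygous and 8.17, 7.41 and 8.26 in null lenses, with full overlap and a difference of 0.05 ± 0.29 (limma, adjusted p = 0.982). Tm7sf2, a sterol reductase, was at 5.32, 4.73 and 5.44 in heterozygous and 5.47, 4.78 and 5.04 in null lenses, a difference of −0.06 ± 0.27 (limma, adjusted p = 0.974). It was detected on 2 of 3 heterozygous arrays. For both genes the SE was larger than the difference. Ebp, the sterol isomerase, was at 6.53, 6.53 and 6.32 in heterozygous and 6.73, 6.98 and 6.76 in null lenses, without overlap. Its difference was only 0.36 ± 0.20 (limma, adjusted p = 0.670) and 0.32 ± 0.20 without arrays 2 and 5. Sc5d, the sterol desaturase, was at 5.47, 5.71 and 5.34 in heterozygous and 5.85, 5.54 and 5.86 in null lenses, a difference of 0.24 ± 0.21 (limma, adjusted p = 0.813).

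Dhcr7, the reductase that completes cholesterol, had the largest difference of the 22 tested members and went the opposite way. It was at 7.90, 9.31 and 7.54 in heterozygous and 7.46, 7.30 and 6.46 in null lenses. The groups did not overlap, but heterozygous array 2 was far above the other heterozygous arrays and heterozygous array 3 lay close to null array 4. The difference was −1.18 ± 0.45, or 2.26-fold lower in null lenses (limma, adjusted p = 0.503, 95% interval without adjustment −2.19 to −0.16). It was −0.65 without heterozygous array 2 and −0.76 ± 0.31 without arrays 2 and 5. Heterozygous array 2, where Dhcr7 was brightest, also had the lowest lens epithelium and the highest pigmented epithelium markers of the 6 arrays (means of −2.04 and 1.04 relative to the heterozygous mean), and their part in the Dhcr7 difference was not tested.

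**Figure D2:**
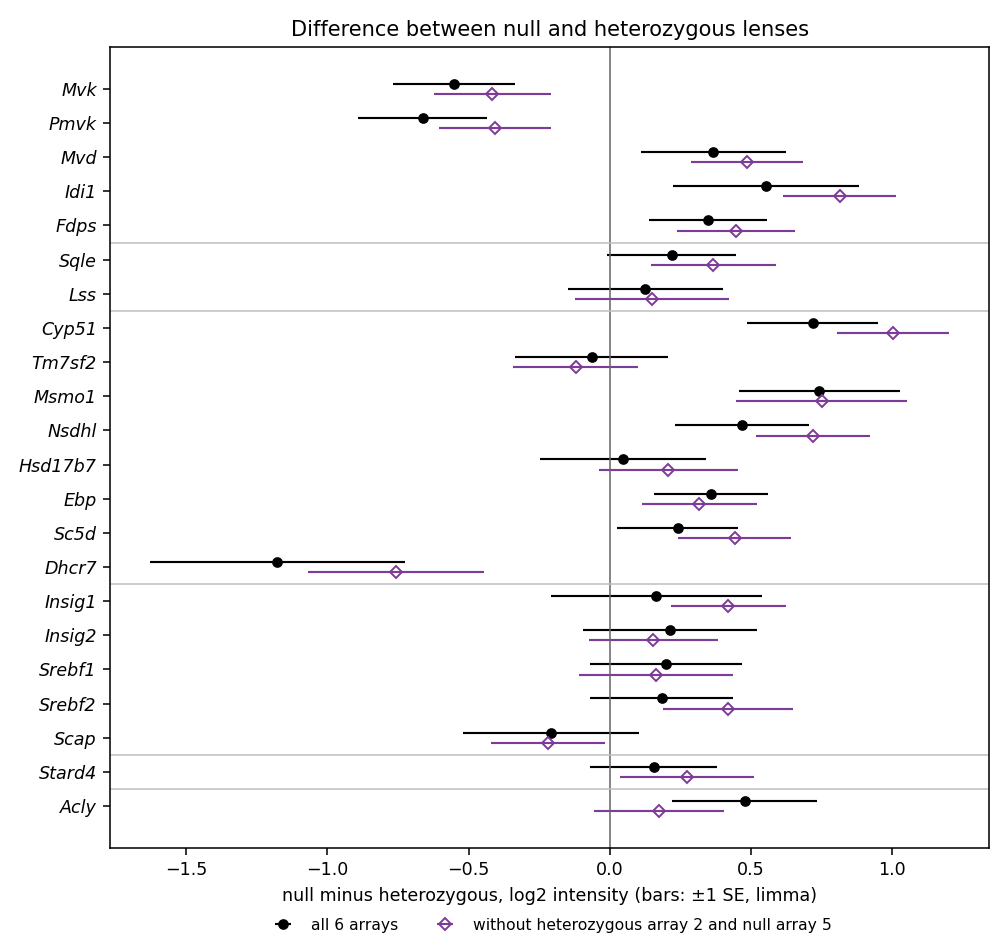
Difference between null and heterozygous lenses in log2 intensity for the 22 tested sterol genes, with all 6 arrays (filled circles) and without heterozygous array 2 and null array 5 (open diamonds). Bars are 1 SE from limma. Cyp51 moves from 0.72 to 1.01 and Dhcr7 from −1.18 to −0.76, and no gene changes side.

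The sterol sensors differed little on their brightest probes, with 4 of 5 above 0 and a median of 0.18, and 0.17 without arrays 2 and 5. Insig1, which holds Scap in the endoplasmic reticulum and is itself an SREBP target, was at 8.72, 8.21 and 8.85 in heterozygous and 9.11, 7.87 and 9.30 in null lenses on its brightest probe, ILMN_2895388. Heterozygous array 2 and null array 5 were the lowest of their groups there, and the difference was 0.17 ± 0.37 (limma, adjusted p = 0.939). The probe ILMN_2606693 was at 6.68, 7.21 and 6.63 in heterozygous and 7.47, 7.49 and 7.67 in null lenses, without overlap, a difference of 0.70 ± 0.23 (limma, adjusted p = 0.397). On the probe ILMN_1245272 the values were 6.90, 7.50 and 7.18 in heterozygous and 7.61, 7.67 and 7.80 in null lenses, also without overlap, and the difference was 0.50 ± 0.22 (limma, adjusted p = 0.577). The 3 Insig1 probes thus disagreed in size, and without arrays 2 and 5 they gave 0.42, 0.91 and 0.67.

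Insig2, the second Insig protein, was at 8.76, 9.44 and 8.86 in heterozygous and 9.21, 9.77 and 8.72 in null lenses, with differences of 0.22 ± 0.31 and 0.08 ± 0.24 on its 2 tested probes. Srebf2, the gene of SREBP-2, was at 5.80, 6.42 and 5.83 in heterozygous and 6.50, 6.14 and 5.97 in null lenses, with differences of 0.18 ± 0.25 and 0.01 ± 0.24 on its 2 tested probes. The groups overlapped for both genes. Srebf1, whose product favours fatty acid genes, was at 6.43, 6.65 and 6.27 in heterozygous and 6.92, 6.92 and 6.10 in null lenses, a difference of 0.20 ± 0.27. Scap was at 6.28, 5.54 and 6.43 in heterozygous and 6.09, 5.36 and 6.19 in null lenses, a difference of −0.21 ± 0.31. The array that stood apart was the lowest of each group for Scap, as for Idi1, Tm7sf2 and the brightest Insig1 probe, while for Mvd, Ebp and Insig2 it was the highest of each group. The adjusted p of these sensors ran from 0.887 for Srebf1 to 0.898 for Scap in limma, besides Insig1.

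**Figure D3:**
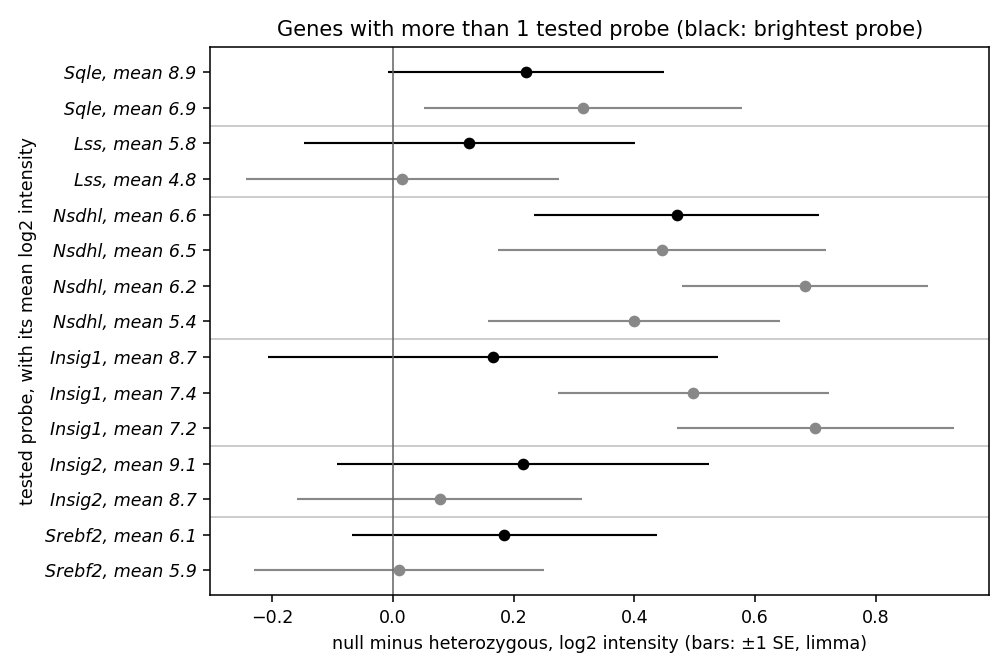
Difference between null and heterozygous lenses in log2 intensity for each tested probe of the 6 sterol genes with more than 1 tested probe, with bars of 1 SE from limma. Black marks the brightest probe of a gene, and each probe's mean log2 intensity stands beside its name. All 4 Nsdhl probes lie at 0.40 or higher, and the brightest Insig1 probe is the lowest of the 3 for that gene.

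Among genes at the edges of the pathway, Acly, which supplies acetyl-CoA from citrate, was at 9.44, 8.64 and 8.92 in heterozygous and 9.39, 9.73 and 9.32 in null lenses. Heterozygous array 1 lay within the null range, and the difference of 0.48 ± 0.26 (limma, adjusted p = 0.650) was 0.18 ± 0.23 without arrays 2 and 5. Stard4, a carrier of cholesterol between membranes, was at 6.21, 6.12 and 5.79 in heterozygous and 6.08, 6.04 and 6.47 in null lenses, a difference of 0.16 ± 0.23 (limma, adjusted p = 0.895). The efflux pumps Abca1 and Abcg1, targets of the oxysterol receptor LXR, were not tested. Abca1 was detected on 0 of 6 arrays, and Abcg1 was detected on null array 5 alone, where it was at 4.84 against 4.23 to 4.42 on the other 5 arrays. Leucocyte and macrophage markers were also highest on null array 5, as given below, and their part in the Abcg1 signal was not tested.

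The arrays were not ranked alike by all sterol genes. Heterozygous array 2 held the highest of the 3 heterozygous values for 15 of 22 members, where it did so for 41.4% of all probes. Null array 4 held the highest null value for 11 of 22, where it did so for 32.2% of all probes. The mean over the 22 members, relative to the heterozygous mean, was −0.05, 0.13 and −0.08 for the heterozygous and 0.28, 0.04 and 0.08 for the null samples, so null arrays 5 and 6 lay within the heterozygous range of this mean. The median SD of a member was 0.28 among heterozygous and 0.31 among null arrays, against 0.30 and 0.25 for all probes.

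Other genes linked to sterols were taken from 6 further lists, and 0 of their tested genes passed in limma with all 6 arrays. Of the 43 genes tested in these lists, 5 were higher at an unadjusted p under 0.05 (4.27% of all probes) and 2 lower (4.44%). These were Tmem97, Scd1, Fads2, Nceh1 and Apoe on the higher side and Lpin1 and Npc1 on the lower. Of 10 fatty acid synthesis genes tested, 8 were above 0, with a median of 0.29, and 0.25 without arrays 2 and 5. Scd1, the desaturase that makes oleate, was at 6.90, 6.17 and 7.30 in heterozygous and 8.42, 8.22 and 8.89 in null lenses, without overlap. Its difference of 1.72 ± 0.32, or 3.29-fold higher in null lenses, missed the threshold (limma, adjusted p = 0.0835) and passed without arrays 2 and 5 (1.55 ± 0.24, adjusted p = 0.0240), where 0.356% of all probes passed as higher. Fads2, a desaturase of polyunsaturated fatty acids, was at 5.35, 4.69 and 4.90 against 5.78, 6.09 and 5.94, also without overlap (difference 0.96 ± 0.24, adjusted p = 0.221, and 0.73 without arrays 2 and 5). Lpin1, a phosphatidate phosphatase, was lower in all null lenses, with a difference of −0.80 ± 0.28 (adjusted p = 0.443), and −0.60 without arrays 2 and 5.

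The other cholesterol synthesis list gave 4 tested genes, 3 of them above 0, with a median of 0.17 that was −0.06 without arrays 2 and 5, when 1 was above 0. Tmem97, a sterol-regulated membrane protein, was at 5.90, 5.88 and 6.09 in heterozygous and 6.40, 6.54 and 6.48 in null lenses, a difference of 0.52 ± 0.20 without overlap (limma, adjusted p = 0.501), and 0.44 without arrays 2 and 5. The electron donor Cyb5r3 differed by −0.25 ± 0.35 and the sterol reductase Lbr by 0.23 ± 0.34, and by −0.27 and −0.07 without arrays 2 and 5. Of 9 sterol uptake and storage genes, 6 were above 0 (median 0.15, and 0.01 without arrays 2 and 5). Npc1, which exports cholesterol from lysosomes, differed by −1.24 ± 0.30 on its brightest probe (limma, adjusted p = 0.202), the ester hydrolase Nceh1 by 0.93 ± 0.37 and the lysosomal lipase Lipa by 0.81 ± 0.42. Without arrays 2 and 5 these were −1.04 for Npc1, 0.66 for Nceh1 and 0.07 for Lipa. The other 2 tested Npc1 probes gave 0.32 ± 0.33 and 0.68 ± 0.29, so the probes of Npc1 disagreed in direction.

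Genes of the isoprenoid branch, which uses farnesyl diphosphate for prenylation, dolichol and ubiquinone, had a median near 0 on their brightest probes. Of 9 tested 4 were above 0 (median −0.04 with and without arrays 2 and 5), with Coq2 at 0.38 ± 0.28, Fnta at −0.25 ± 0.20 and Rabggtb at −0.13 ± 0.23. Another tested probe gave 0.24 ± 0.23 for Coq2 and 0.17 ± 0.24 for Fnta. The Rabggtb probe ILMN_2703263, detected on 3 heterozygous arrays and 1 null array, gave −0.64 ± 0.29 (limma, adjusted p = 0.585). Without arrays 2 and 5 it gave −1.06 ± 0.23 (limma, adjusted p = 0.0836), and the groups did not overlap. On their brightest probes, 1 of 7 genes that process SREBP or degrade the reductase of the pathway was above 0. Their median was −0.08, and −0.09 without arrays 2 and 5, when 2 were above 0. Marchf6 was at −0.42 ± 0.20, Mbtps2 at −0.30 ± 0.27 and Spring1 at −0.10 ± 0.24. Without arrays 2 and 5 these were −0.46, 0.05 and −0.15. Mbtps2 was detected on 2 heterozygous arrays and 1 null array. The other tested Marchf6 probes gave −0.02 ± 0.21 and −0.05 ± 0.33. Mbtps1 was at −0.04 ± 0.23 on its brightest probe, and its other tested probes gave 0.24 ± 0.22 and 0.59 ± 0.30. The 4 tested LXR targets and oxysterol genes had a median of 0.20, and 0.02 without arrays 2 and 5. Apoe, the sterol-carrying apolipoprotein made by macrophages among other cells, was at 6.45, 4.39 and 5.60 in heterozygous and 6.13, 8.81 and 6.89 in null lenses, a difference of 1.80 ± 0.68 (limma, adjusted p = 0.495) that was 0.49 ± 0.33 without arrays 2 and 5. Cyp27a1 differed by −0.45 ± 0.22 and Lpcat3 by 0.20 ± 0.23.

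Markers of several cell types also differed between arrays. Leucocyte and macrophage markers had a summed intensity of 438 to 472 in heterozygous and 725 to 5932 in null lenses, highest on null array 5, and 2 to 5 of 19 named markers were detected on heterozygous arrays against 10 to 16 on null arrays. On heterozygous arrays 14 of the 19 were never detected, Lyz2, Tyrobp and the C1q chains among them, and Ptprc, Itgam and Cx3cr1 were undetected on null arrays too. Of the 10 tested 9 were above 0 (median 2.03), with Laptm5 at 3.79 ± 0.63, Lyz2 detected on 0 of 3 heterozygous arrays, and Cd53 at 1.21 ± 0.29 (limma, adjusted p = 0.0623 for Laptm5 and 0.210 for Cd53). Without arrays 2 and 5 the leucocyte median was 1.35, and 4 of the 10 passed, all higher, as 0.356% of all probes did. The 14 markers never detected on heterozygous arrays could pass the filter of detection on 3 or more arrays only through the null group. Lyz2 passed it in this way, and was also 1 of the 4 past the threshold without arrays 2 and 5. The counts and medians of the tested leucocyte markers thus partly follow from the filter, and are not a test of a difference in these markers. Lens epithelium markers summed to 990 on heterozygous array 2 and to 4526 to 10197 on the other 5, and Foxe3, Pdgfra and Slc2a1 differed by 0.52 ± 0.34, 1.42 ± 0.98 and 0.75 ± 0.63, and by −0.06, 0.04 and −0.01 without arrays 2 and 5. The other tested epithelium markers, Cdh1 and Gja1, differed by 0.06 ± 0.81 and −0.01 ± 1.26, and by −0.23 ± 0.28 and −0.60 ± 0.23 without that pair, where the Gja1 values of the groups did not overlap. The median of the 5 was 0.52, and −0.06 without the pair. Photoreceptor markers summed to 344 on heterozygous array 1, 1392 and 1090 on heterozygous arrays 2 and 3 and 1187 to 1690 on null arrays, with Rom1, Sag and Gnat1 at 0.66 ± 0.26, 0.97 ± 0.44 and 1.02 ± 0.56. The median of the 9 photoreceptor markers was 0.65, and 1.14 without arrays 2 and 5. In RNA of whole lenses, a change in the number of cells of a type and a change in RNA per cell cannot be told apart. The part of these markers in the sterol gene differences was not tested.

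**Figure D4:**
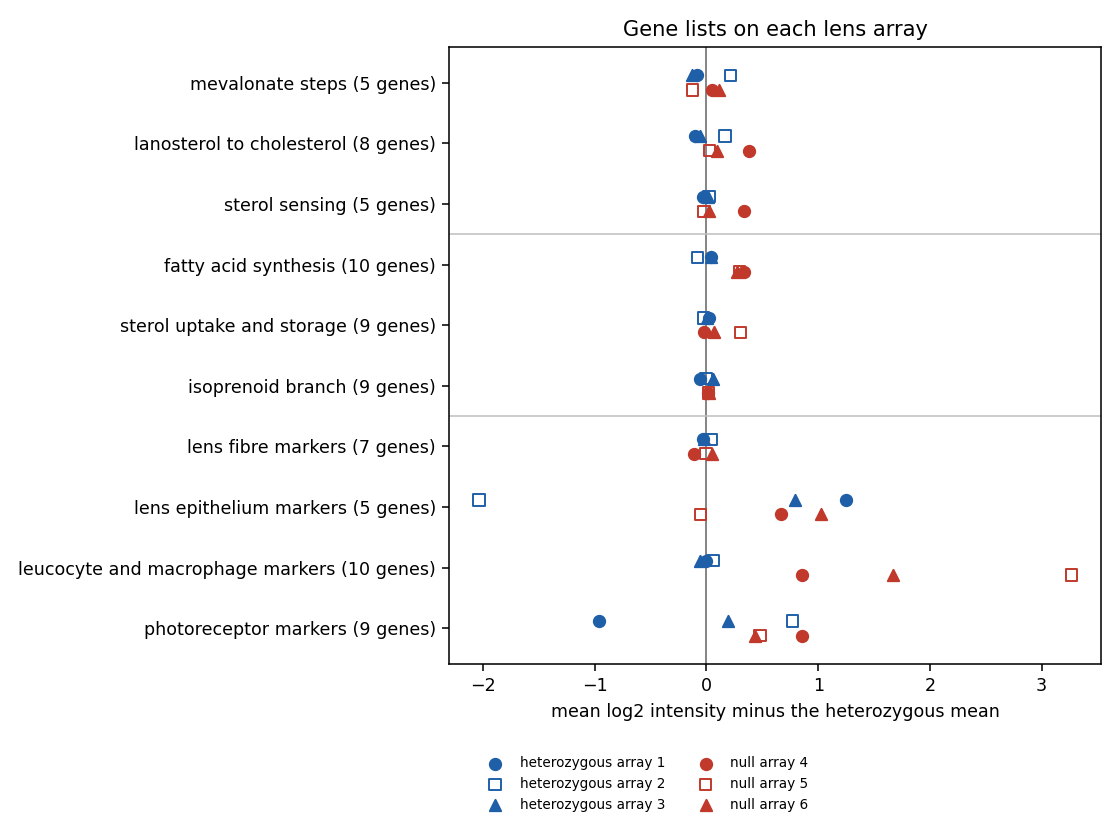
Mean log2 intensity of 10 gene lists on each array, relative to the mean of the 3 heterozygous arrays (horizontal axis), with 3 sterol role groups above, other lipid lists in the middle and cell type markers below. Blue symbols are heterozygous and red symbols null arrays, with open squares for heterozygous array 2 and null array 5. The mevalonate, lanosterol to cholesterol and sterol sensing groups stay within 0.4 of 0, while leucocyte markers reach 3.27 on null array 5 and lens epithelium markers −2.04 on heterozygous array 2.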

How the data were processed

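Biotinylated cRNA of 6 lens samples was hybridised to Illumina arrays, per the labels' protocols. The scanner and the summary software were not given in the sources used here. Linear intensities, 1 per probe and array, make up the deposited raw table, with a detection p-value for each, per the file headers. By their values they carry no background subtraction or normalization, and the columns name the group but no replicate. The authors' series matrix holds intensities that are straight-line rescalings of the raw columns (largest residual 0.017). Its method, centring included, is unknown, its direction is that of brightness, and its column medians are 65.4, 66.2 and 64.8 for heterozygous and 65.7, 66.2 and 64.8 for null replicates 1, 2 and 3.

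Intensities were processed with neqc of limma 3.58.1 in R 4.3.3 (normexp from detection p-values, offset 16, quantile normalization, log2). This offset shrinks the differences of dim probes. A probe was tested if its detection p was under 0.05 on 3 or more arrays (14902 of 45281 probes), null minus heterozygous, with lmFit and eBayes, two-sided, Benjamini-Hochberg adjustment and a threshold of 0.05. Taking log2 before the quantile step, an alternative chosen after seeing the data, called 27 probes in place of 26. A gene was represented by its tested probe with the highest mean. The platform annotation gave 34885 probes 1 gene, 18 several and 10378 none. Arrays were left out without renormalizing. Alternatives covered left-out arrays, the filter, background, scaling, source of values, a replicate block, array weights and probe choice. The fit was tested on simulated data.

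All tested members were named, with up to 3 genes of smallest p from each of 6 pathway lists and 7 marker lists. Cdh1, Gja1 and Ttr were named after their values were seen, to complete their lists. Members, lists and tests were chosen with earlier results of these data known. Same-numbered replicates correlated in their deviations from the group means at −0.01, 0.25 and 0.57 on the series matrix, and unlike-numbered ones at −0.38 to 0.07. The names of the raw columns carry no replicate number, and the main fit took no pairs. Each series matrix column matched a raw column (rank correlation 1), but this match was not used to number the raw columns. The replicate block was run on the series matrix values alone. Promoter windows came from RefSeq tables of GRCm38.p6.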

Additional observations from a re-analysis of the deposited data

How the results depend on the processing

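In the 16 other settings, 15 again called 0 of the tested sterol genes, and array weights called 1, Cyp51 (0.92). The median difference over the sterol genes was 0.21 and moved by more than its spread between arrays only with scaling to one median (0.60), where the median of all probes was 0.28, so that 17 of 22 genes lay above the median of all probes in both settings. It was 0.15 to 0.32 when single arrays were left out, when 14 to 18 of 22 genes were above 0. On the series matrix values it was 0.13, both without and with the replicate block, and 0 sterol genes passed in either. Signs turned for 6 of the 22 genes. Scaling to one median gave 0.018 for Tm7sf2 and 0.058 for Scap, and array weights gave −0.041 for Hsd17b7. With single arrays left out, the range was −0.28 to 0.10 for Tm7sf2, −0.11 to 0.31 for Hsd17b7, −0.10 to 0.61 for Insig1, −0.020 to 0.39 for Lss, −0.055 to 0.47 for Insig2 and −0.48 to 0.052 for Scap. The cause was not tested. The other 16 genes kept their sign in every setting run. The count of all probes called was 26, and 112 without heterozygous array 2 and null array 5, 261 with array weights, 14 with no background correction and 3 with median scaling. Leaving out single arrays gave 10, 18 and 7 calls for heterozygous arrays 1, 2 and 3 and 29, 13 and 2 for null arrays 4, 5 and 6. It was 0 in limma with no filter (2759 at an unadjusted p under 0.05), on the series matrix values (1058) and with their replicate block (1307). With no filter, Ggps1, Abca1 and Abcg1 differed by −0.27, −0.000688 and 0.20, at signals near background that limit what can be read from them.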

Other observations

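Markers of smooth muscle, pigmented epithelium and blood were also on the arrays. Of the smooth muscle markers only Acta2, which lens cells can also make, was detected, and it differed by 0.60 ± 0.22 (limma, adjusted p = 0.489), with all 3 null values above the 3 heterozygous ones, and by 0.51 without heterozygous array 2 and null array 5, while Cnn1, Myh11 and Tagln were detected on no array. Of the 4 pigmented epithelium markers tested, Tyrp1, Pmel, Dct and Ttr differed by −0.71 ± 0.31, −0.35 ± 0.25, −0.66 ± 0.52 and 0.13 ± 0.82, and by −0.22, −0.13, 0.17 and 1.12 without that pair of arrays. Their median was −0.51, and 0.02 without the pair, and Dct was at 7.40 on heterozygous array 2 against at most 5.61 on the other 5 arrays. Of the erythroid markers, Slc4a1 differed by −0.75 ± 0.39 and Hba-a1 by −0.30 ± 0.91, and by −0.08 and −0.05 without the pair. Of the lens fibre markers, Cryab, Lim2 and Crybb1 differed by 0.12 ± 0.20, −0.07 ± 0.19 and −0.06 ± 0.19, where quantile normalization limits the differences of such bright probes.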
